A study of Homo sapiens with 6 samples.

Results

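Genes of retinoid metabolism and signalling were followed in cells given RARγ inhibitors: RDH10, DHRS9, DHRS3, RDH11, RDH13, ALDH1A3, CYP26B1, CRABP2 and TGM2, 9 in all. They were chosen by name from the 53826 entries of the files, and earlier results of these data were known at that time. A share of all entries set beside a count of these genes is therefore a description and not a test of the list. Each of the 9 genes had 1 entry. RNA was sequenced from PK-1 and from Panc-1, human lines derived from pancreatic ductal adenocarcinoma (PDAC). Cells of each line served as controls or received, for 24 h, an antagonist of retinoic acid receptor γ, either LY2955303 (RARγi-1) or MM11253 (RARγi-2). Each of the 6 conditions had 1 library, so a difference within 1 line could not be compared with a replicate error and has no p-value. The only test is of an effect common to both lines, with the lines standing as replicates. The doses and the control vehicle of the RNA-seq itself were not stated in the sources used here; other assays of the study used DMSO as the control and unequal concentrations of the inhibitors. The treatment entry of both RARγi-2 libraries names RARγi-1, and these 2 libraries were placed by their titles. Every RARγi-2 value below therefore rests on the titles.

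Retinol is oxidised to retinaldehyde by dehydrogenases such as RDH10 and DHRS9, and retinaldehyde is returned to retinol by reductases such as DHRS3, RDH11 and RDH13. ALDH1A3 oxidises retinaldehyde to retinoic acid (RA), CRABP2 carries RA to its receptors in the nucleus, and CYP26B1 hydroxylates RA for removal. The receptors bind DNA as dimers with retinoid X receptors, and TGM2, which encodes the cross-linking enzyme tissue transglutaminase, is a long-known RA-induced gene. DHRS3 and members of the CYP26 family are also induced by RA in many cells.

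Levels are given in TPM, a transcript abundance that is scaled to one total per library and for transcript length. The deposited values are log2 TPM with everything under 1 TPM raised to 1 TPM, and this lower limit is called the floor. TPM keeps no read depth, so the counting error of each value is unknown. In the 6 libraries, 13149 to 13652 entries lay above the floor. Of the ductal epithelial markers, KRT8, KRT18 and KRT19 were above 100 TPM in every library, while the 3 Panc-1 libraries had CDH1 at the floor. KRT7 was at 4.19, 2.40 and 2.67 TPM and EPCAM at 13.4, 19.4 and 9.18 TPM in the Panc-1 control, RARγi-1 and RARγi-2 libraries. In the PK-1 control these genes were at 5663 and 578 TPM. The fibroblast, immune and endothelial genes DCN, LUM, PTPRC, PECAM1 and VWF were at the floor throughout. COL1A1, a fibroblast collagen that some cancer lines also express, was at 3.21, 11.5 and 13.4 TPM in the PK-1 control, RARγi-1 and RARγi-2 libraries and at 52.4, 4.65 and 2.10 TPM in those of Panc-1. CD68, a lysosomal gene used as a macrophage marker, was at 19.8, 95.0 and 62.6 TPM in the first line and 244, 276 and 238 TPM in the second. Of 4 acinar genes, PRSS1 alone was above the floor, at 1.06, 11.1 and 21.2 TPM in PK-1 cells. The summed TPM of the 6 ductal markers was 22498 in the PK-1 control, 13507 with RARγi-1 and 14127 with RARγi-2. Most of it came from keratins, and other genes of the list did not follow it, with CDH1 at 170, 270 and 385 TPM and EPCAM at 578, 552 and 497 TPM in PK-1. In Panc-1 cells this sum was 8418, 1783 and 1484 in the same order, so that it was lower in the same treated libraries in which several of the 9 genes were lower, and the part of these markers in those results was not tested.

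Across the 9 genes, TGM2, ALDH1A3, DHRS3 and CRABP2 were lower in all 4 treated libraries than in the control of the same line. RDH10, RDH13 and CYP26B1 stayed within 2-fold of the control in all 4 treated libraries. DHRS9 was higher in both treated PK-1 libraries and lay at the floor in Panc-1 cells, and RDH11 was more than 2-fold lower only in the PK-1 library given RARγi-2.

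**Figure D1:**
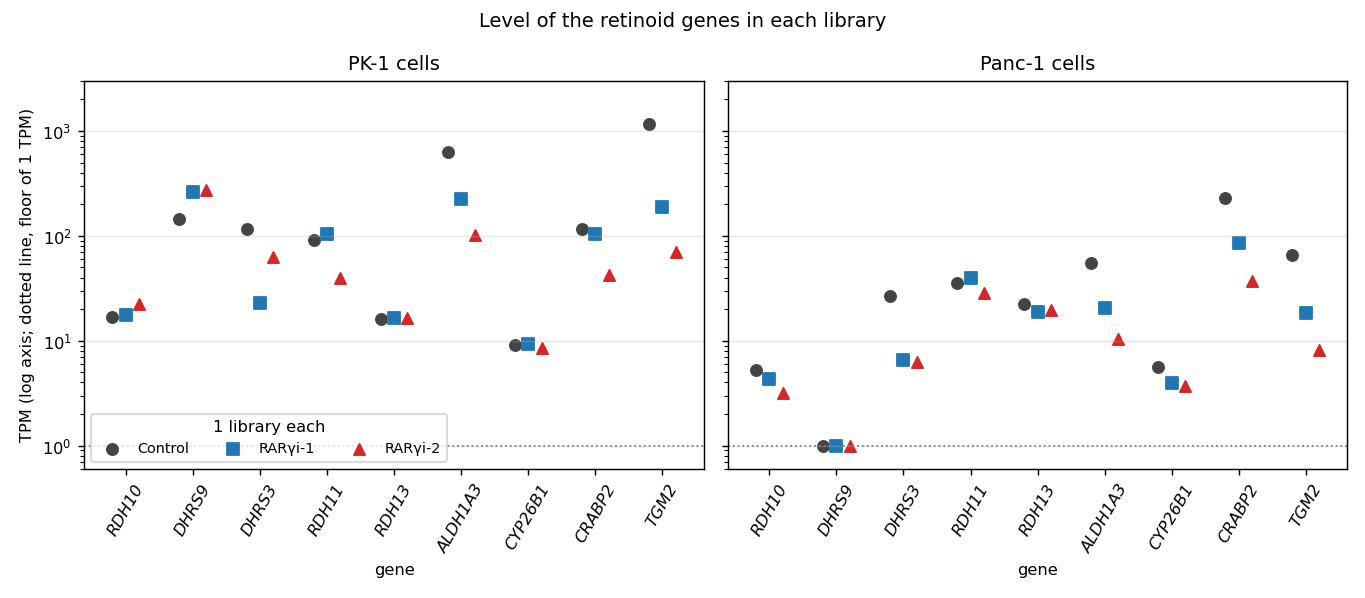
Level of the 9 genes in TPM (log axis) in the PK-1 and Panc-1 libraries, with 1 point for each library and the floor of 1 TPM as a dotted line. TGM2 and ALDH1A3 stand highest in the PK-1 control and are lower in both treated libraries of each line, and the 3 points of RDH13 lie close together in PK-1.

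In the PK-1 control, TGM2 was the most abundant of the 9 genes at 1167 TPM, followed by ALDH1A3 at 627 TPM. In both treated PK-1 libraries DHRS9 was the most abundant of them. CRABP2 was the most abundant of the 9 genes in all 3 Panc-1 libraries. At the other end of the order, CYP26B1 was the lowest in each PK-1 library, and CYP26B1 and RDH10 were the lowest above the floor in each Panc-1 library. Neighbours in this order were often close. DHRS3 and CRABP2 in the PK-1 control, at 117 and 116 TPM, were almost equal, and no error is at hand for comparing different genes within a library.

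Promoter sequences of genes that were lower in all 4 treated libraries are shown here because these genes shared a direction, though not a size, and 3 of the 4 were in the promoter table used. The 250 bases before the RefSeq start (GRCh38.p14) were searched on both strands for AGGTCA, for AGTTCA, for GGGTCA and for GGTTCA, words of the kind that RA receptors bind as repeats; 7 of the 9 genes had a promoter in the table, and TGM2 and RDH10 did not. The CRABP2 stretch lies at chr1:156705785-156706034 on the minus strand, the stretch before the first DHRS3 start at chr1:12618211-12618460 on the minus strand, and the ALDH1A3 stretch at chr15:100879581-100879830 on the plus strand. Sequences run 5′ to 3′ on the strand of the gene, and capitals mark a match.
CRABP2: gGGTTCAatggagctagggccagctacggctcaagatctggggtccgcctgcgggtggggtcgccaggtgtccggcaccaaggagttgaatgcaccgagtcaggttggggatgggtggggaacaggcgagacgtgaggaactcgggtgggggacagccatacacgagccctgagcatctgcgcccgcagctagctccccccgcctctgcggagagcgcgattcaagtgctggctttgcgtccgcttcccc
DHRS3: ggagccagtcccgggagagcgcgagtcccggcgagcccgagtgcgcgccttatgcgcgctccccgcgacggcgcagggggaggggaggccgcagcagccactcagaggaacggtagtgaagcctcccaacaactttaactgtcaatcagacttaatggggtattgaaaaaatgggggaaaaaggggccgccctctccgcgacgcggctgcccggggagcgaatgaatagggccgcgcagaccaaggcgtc
ALDH1A3: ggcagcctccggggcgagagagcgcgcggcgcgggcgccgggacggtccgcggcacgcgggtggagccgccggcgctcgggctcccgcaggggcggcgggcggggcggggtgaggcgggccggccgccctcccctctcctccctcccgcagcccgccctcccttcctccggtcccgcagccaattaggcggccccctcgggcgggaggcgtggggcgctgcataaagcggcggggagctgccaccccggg
The CRABP2 stretch held 1 match, GGTTCA, from 249 to 244 bases before the start. The ALDH1A3 stretch and the stretch before the first DHRS3 start held none. At later starts, DHRS3 had GGTTCA 172 to 167 bases before the second start and AGGTCA on the opposite strand 171 to 166 bases before the third start. Matches also occurred in RDH13 and DHRS9, which were not among the genes lower in all 4 treated libraries. RDH13 had AGGTCA on the opposite strand 137 to 132 bases before 1 of its starts. DHRS9 had AGTTCA on the opposite strand 218 to 213 bases before 1 of its starts. No promoter of the 7 genes held a pair of these words as a direct repeat with 1, 2 or 5 bases between. Of the matches named here, only that of CRABP2 lay before a first start. A single word is common, being present in 34.0% of the first promoters of 27305 genes and in 33.8% of all 35116 promoters. Direct repeats with 5 bases between were present in 0.0696% of the first promoters and in 0.0740% of all promoters. GC content was 82.4% in the ALDH1A3 stretch, 65.6% in that of CRABP2 and 65.2% in that of DHRS3, against a median of 58.0% and an upper quartile of 67.6% over all first promoters. A match is a description of these letters and does not mark a bound site.

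A fold change is the log2 of a treated library's TPM + 1 divided by the TPM + 1 of its line's control. Where a linear fold is printed for a gene, it is the plain ratio of TPM without the added 1, and it is somewhat larger than the log2 value implies. Both inhibitors of a line share 1 control library, so an odd value in that control would move both comparisons. As a yardstick in place of a replicate error, the difference between the RARγi-2 and RARγi-1 libraries was taken for each entry with at least 5 TPM. Its robust spread on the log2 scale was 0.41 for PK-1 cells and 0.32 for Panc-1 cells. This spread includes real differences between the inhibitors. With RARγi-1, 3 of the 9 genes were more than 2-fold lower in PK-1 cells, against 4.85% of all 14269 entries above the floor in that line. With RARγi-2, 4 of the 9 were more than 2-fold lower, against 12.3% of entries. DHRS9 was at the floor in Panc-1, which left 8 genes there, and 4 of the 8 were more than 2-fold lower with RARγi-1, against 5.96% of 14184 entries. With RARγi-2, 4 of the 8 were lower as well, against 11.0% of entries. None of the 9 genes was more than 2-fold higher in any comparison, against 9.05% (RARγi-1) and 11.9% (RARγi-2) of PK-1 entries and 7.30% and 8.34% of Panc-1 entries. The median log2 fold change of the genes above the floor was 0.01 (RARγi-1) and -0.90 (RARγi-2) for PK-1 cells and -0.91 and -1.25 for Panc-1 cells, and that of all entries was 0.13, 0.01, 0.08 and -0.01 in the same order.

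**Figure D2:**
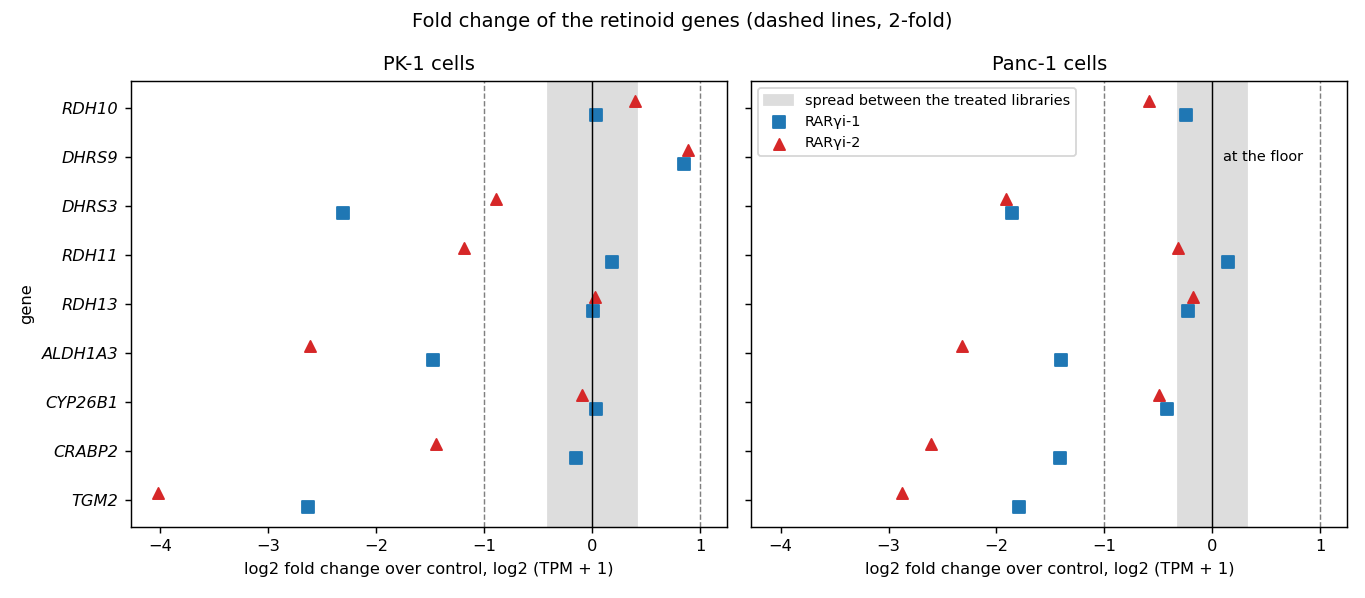
Log2 fold change over control of the 9 genes on the log2 (TPM + 1) scale with RARγi-1 (squares) and RARγi-2 (triangles), 1 library against 1 library. The grey band is the spread of the difference between the treated libraries of a line (0.41 in PK-1 and 0.32 in Panc-1), dashed lines mark 2-fold, and TGM2 and ALDH1A3 lie past the lower 2-fold line in all 4 comparisons.

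TGM2 (Entrez 7052, chr20:38127385-38168475 in GRCh38.p14) had the largest fold change of the 9 genes in 3 of the 4 comparisons, the exception being Panc-1 with RARγi-1. Its transcript level in PK-1 cells was 1167 TPM in the control, 188 TPM under RARγi-1 and 70.9 TPM under RARγi-2. In Panc-1 cells it was 66.2, 18.4 and 8.17 TPM in the same order. The control was the highest library and RARγi-2 the lowest in each line. By the plain ratio of TPM, TGM2 was 6.22-fold lower with RARγi-1 and 16.5-fold lower with RARγi-2 for PK-1 cells, and 3.60-fold and 8.11-fold lower for Panc-1 cells. On the log2 (TPM + 1) scale the difference was -2.63 under RARγi-1 and -4.02 under RARγi-2 in PK-1. In Panc-1 it was -1.79 and -2.87, each several times the spread between treated libraries. In PK-1 cells, 0.0981% and 0.0561% of all entries above the floor had a fold change as low as that of TGM2 or lower, with RARγi-1 and RARγi-2. In Panc-1 cells these shares were 1.39% and 0.494%. Among the transglutaminases, TGM2 supplied 99.9% of the summed TPM above the floor in the PK-1 control and 91.9% with RARγi-2. TGM1, a keratinocyte enzyme, was the only other one above the floor, at 1.14, 2.83 and 6.23 TPM in PK-1 and 1.09, 1.14 and 1.43 TPM in Panc-1.

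ALDH1A3 (Entrez 220, chr15:100879831-100916626) showed the same order of libraries in both lines. It stood at 627 TPM in the PK-1 control, 224 TPM under RARγi-1 and 102 TPM under RARγi-2. In Panc-1 cells it stood at 55.6, 20.5 and 10.4 TPM. Every treated library was below the control of its line, and the RARγi-2 library was below the RARγi-1 library. By the plain ratio of TPM, PK-1 cells had 2.79-fold less with RARγi-1 and 6.17-fold less with RARγi-2, and Panc-1 cells 2.72-fold and 5.36-fold less. On the log2 (TPM + 1) scale the differences were -1.48 and -2.61 for PK-1 cells, and -1.40 and -2.32 for Panc-1 cells. The antisense transcript ALDH1A3-AS1, which overlaps the gene, was at 13.2, 5.13 and 1.88 TPM in PK-1 and at 3.63, 1.91 and 2.17 TPM in Panc-1. The library kit marks strand, but whether the counting used it was not stated, so reads of the gene and of this transcript may not be separated. ALDH1A3 was the only one of the retinaldehyde dehydrogenases examined that was above the floor, since ALDH1A1, ALDH1A2 and ALDH8A1 lay at the floor in all 6 libraries. ALDH1A3 and TGM2 were the 2 genes of the list that were more than 2-fold lower in all 4 comparisons, a pattern shown by 2.13% of the 12799 entries above the floor in both lines.

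CRABP2 (Entrez 1382, chr1:156699606-156705784) was at 116 TPM in the PK-1 control, 105 TPM under RARγi-1 and 42.0 TPM under RARγi-2. In Panc-1 cells it was at 231, 86.4 and 37.2 TPM. Thus both Panc-1 treated libraries were well below their control, while in PK-1 only the RARγi-2 library was. The log2 fold change in PK-1 was -0.15 with RARγi-1, within the spread, and -1.45 with RARγi-2. In Panc-1 it was -1.41 and -2.61, and the plain ratios of TPM were 2.68-fold and 6.22-fold lower. FABP5, a carrier that can take RA to another nuclear receptor, was at 516, 170 and 149 TPM in PK-1 and 234, 180 and 166 TPM in Panc-1. FABP5 was more than 2-fold lower with both inhibitors in PK-1 (-1.59 and -1.78 on the log2 scale) but within 2-fold in Panc-1 (-0.38 and -0.49). The ratio of FABP5 to CRABP2 in TPM was 4.45, 1.63 and 3.56 for PK-1 cells and 1.01, 2.08 and 4.47 for Panc-1 cells, in the order control, RARγi-1, RARγi-2.

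DHRS3 (Entrez 9249, chr1:12567910-12618210) was the one gene of the list for which the RARγi-1 level was below the RARγi-2 level by more than the spread, and this held in PK-1 only. It stood at 117 TPM in the PK-1 control, 22.8 TPM under RARγi-1 and 62.3 TPM under RARγi-2. In Panc-1 cells it stood at 26.4 TPM in the control and at 6.58 and 6.27 TPM with RARγi-1 and RARγi-2. All 4 treated libraries were below their control, and the 2 treated Panc-1 libraries were almost equal. The log2 fold change was -2.30 under RARγi-1 and -0.90 under RARγi-2 for PK-1 cells, and -1.86 and -1.92 for Panc-1 cells. In PK-1, 0.245% of entries had a fold change as low as DHRS3 with RARγi-1, and 14.6% had one as low with RARγi-2. Counting a lower level of any size, 4 of the 8 genes above the floor in both lines (DHRS3, ALDH1A3, CRABP2 and TGM2) were lower in all 4 comparisons, against 24.1% of entries. None of the 8 was higher in all 4, a pattern that 31.5% of entries showed at any size and 2.63% past 2-fold.

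The other reductases did not share one pattern. RDH11 (Entrez 51109) was at 91.2, 104 and 39.4 TPM in PK-1, and RARγi-2 alone gave a low value. In Panc-1 it was at 35.7, 39.6 and 28.5 TPM. The log2 fold change of RDH11 was 0.18 under RARγi-1 and -1.19 under RARγi-2 in PK-1. In Panc-1 it was 0.14 and -0.32. GPHN, which overlaps RDH11 in the annotation, was at 14.7, 10.9 and 6.61 TPM in PK-1. RDH13 (Entrez 112724), a mitochondrial enzyme of the same family, was at 16.2, 16.3 and 16.5 TPM in PK-1 cells and 22.3, 18.9 and 19.5 TPM in Panc-1 cells. These log2 differences of RDH13, from -0.22 to 0.03, were all within the spread.

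Of the retinol-oxidising enzymes, DHRS9 (Entrez 10170) separated the lines. It was at 146 TPM in the PK-1 control, 265 TPM under RARγi-1 and 272 TPM under RARγi-2, whereas every Panc-1 library had it at the floor. Both treated PK-1 libraries were above the control by similar amounts (0.85 and 0.89 on the log2 scale), short of 2-fold but past the spread. RDH10 (Entrez 157506), regarded as the main retinol dehydrogenase of the embryo, was at 17.0, 17.4 and 22.6 TPM in PK-1 and 5.29, 4.30 and 3.19 TPM in Panc-1. On the log2 scale RDH10 differed from its control by 0.03 and 0.39 in PK-1, and by -0.25 and -0.59 in Panc-1, and only the last of these passed the spread. The summed TPM of RDH10 and DHRS9 over that of DHRS3, RDH11 and RDH13 was 0.728 in the PK-1 control, 1.98 with RARγi-1 and 2.49 with RARγi-2. In Panc-1 this ratio was 0.0627, 0.0660 and 0.0588. These ratios are of transcripts and say nothing of enzyme activity.

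CYP26B1 (Entrez 56603) was the most even of the RA-handling genes in PK-1. It was at 9.12, 9.35 and 8.49 TPM in PK-1 and 5.63, 3.95 and 3.72 TPM in Panc-1. The PK-1 log2 fold changes, 0.03 and -0.09, were within the spread, and those in Panc-1, -0.42 and -0.49, were past it but under 2-fold. CYP26A1 was at the floor in all 6 libraries, and CYP26C1 was at the floor in PK-1 and at 1.13, 3.37 and 1.06 TPM in Panc-1. With ALDH1A3 lower and CYP26B1 within 2-fold, the ratio of ALDH1A3 to CYP26B1 in TPM was 68.8, 24.0 and 12.0 in PK-1 cells and 9.87, 5.19 and 2.79 in Panc-1 cells.

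**Figure D3:**
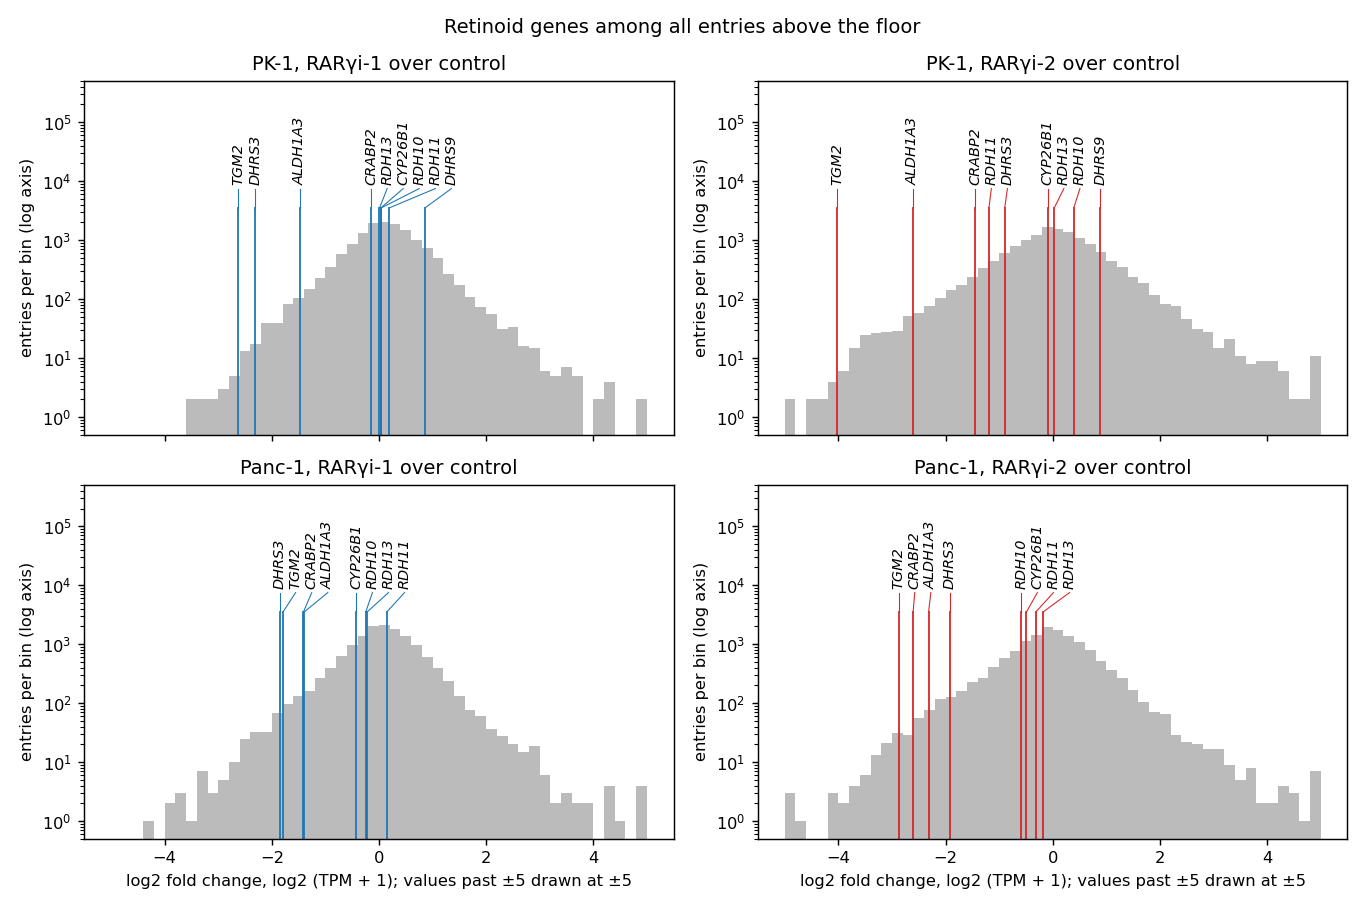
Number of entries (log axis) by log2 fold change on the log2 (TPM + 1) scale for all entries above the floor in the line (grey) in the 4 comparisons, with the 9 genes as coloured lines. DHRS9, at the floor in Panc-1, is drawn in PK-1 only. TGM2 lies near the low end in PK-1 (-2.63 and -4.02). In Panc-1 TGM2, DHRS3, CRABP2 and ALDH1A3 lie left of the main mass while RDH10, RDH11, RDH13 and CYP26B1 lie within it.

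The inhibitors were next set side by side within each line. Since their doses were not stated, the differences cannot be read as differences in potency. RARγi-2 gave a level lower than RARγi-1 by more than the spread for 4 genes in PK-1 (RDH11, ALDH1A3, CRABP2 and TGM2), against 24.5% of entries. In Panc-1 it did so for 5 genes, the same 4 and RDH10, against 26.0% of entries. RDH10 there was at the edge, with a difference of -0.34 and a level of at most 5.29 TPM, and among Panc-1 entries of 5 to 10 TPM the spread was 0.37, which it did not pass. DHRS3 in PK-1 was the only gene of the list for which RARγi-2 gave the higher level beyond the spread, against 9.52% of entries, and Panc-1 had no such gene, against 8.91% of entries. The log2 difference, RARγi-2 minus RARγi-1, was -1.39 for TGM2, -1.14 for ALDH1A3 and -1.30 for CRABP2 in PK-1. In Panc-1 it was -1.08, -0.92 and -1.19. For DHRS3 it was 1.41 in PK-1, against -0.06 in Panc-1. For RDH11 it was -1.37 in PK-1, against -0.46 in Panc-1. The median of this difference over the entries behind the spread was -0.16 for PK-1 cells and -0.11 for Panc-1 cells.

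The control libraries differed between the lines for most of the 9 genes. DHRS9 was at 146 TPM in the PK-1 control and at the floor in the Panc-1 control, so no fold is given. TGM2 was 17.6-fold higher in the PK-1 control than in the Panc-1 control, and ALDH1A3 11.3-fold. DHRS3 was 4.42-fold, RDH10 3.21-fold, RDH11 2.55-fold and CYP26B1 1.62-fold higher in PK-1. CRABP2 was 1.99-fold and RDH13 1.38-fold higher in the Panc-1 control. For comparison, 14.6% of 14618 entries were more than 2-fold higher in the PK-1 control and 15.7% in the Panc-1 control. Cell line and library cannot be told apart here.

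To test an effect common to both lines, limma was fitted to log2 (TPM + 1) of the 12799 entries above the floor in both lines, with cell line and treatment as terms. The residual has 2 degrees of freedom, the lines stand as replicates, and p-values were adjusted over all these entries by the Benjamini-Hochberg method. With RARγi-1, 3 of the 8 genes were lower at an adjusted p under 0.05, against 1.54% of entries, and with RARγi-2 also 3, against 11.9% of entries. None was higher, against 3.44% and 11.8% of entries. Without adjustment, 3 and 5 of the 8 genes had a limma p under 0.05, against 3817 and 5216 of the 12799 entries. TGM2 had a common log2 difference of -2.21 ± 0.30 (SE) with RARγi-1 (limma, adjusted p = 0.0360) and of -3.45 ± 0.30 with RARγi-2 (adjusted p = 0.00800), and it was lower in 4 of 4 treated libraries. For ALDH1A3 the difference was -1.44 ± 0.15 (limma, adjusted p = 0.0275) and -2.46 ± 0.15 (adjusted p = 0.00647), again in 4 of 4. DHRS3 lay at the threshold, with -2.08 ± 0.37 under RARγi-1 (limma, adjusted p = 0.0492) and -1.41 ± 0.37 under RARγi-2 (adjusted p = 0.0513). CRABP2 passed under RARγi-2 alone, at -2.03 ± 0.34 (limma, adjusted p = 0.0189), against -0.78 ± 0.34 under RARγi-1 (adjusted p = 0.202); whether these differ was not tested. RDH10, RDH11, RDH13 and CYP26B1 passed with neither inhibitor, the lowest of their limma adjusted p-values being 0.104 for RDH11 under RARγi-2. All calls with RARγi-1 were lost when either library given it was left out, which leaves 1 library for that treatment. Leaving out a library given RARγi-2 likewise leaves 1 for that treatment, so such a fit cannot test an effect common to both lines. With each library left out in turn, the log2 difference with RARγi-2 ran from -3.94 to -2.95 for TGM2. For ALDH1A3 it ran from -2.59 to -2.34. For CRABP2 it ran from -2.63 to -1.42, and the CRABP2 call was lost without either library given RARγi-2. The DHRS3 call under RARγi-1 was also lost without the control of either line, which leaves 1 control library. In these fits the log2 difference of CRABP2 under RARγi-1 ran from -1.39 to -0.17, and that of RDH11 under RARγi-2 from -1.20 to -0.31.

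Of 55 further genes of retinoid uptake, storage, oxidation, signalling and response, 25 exceeded the floor in a PK-1 library and 20 in a Panc-1 library. In PK-1, 2 of 25 were more than 2-fold higher and 2 lower with RARγi-1, and 5 were higher and 2 lower with RARγi-2. In Panc-1, 2 of 20 were higher and 1 lower with RARγi-1, and 1 was higher and 1 lower with RARγi-2. These counts stand beside the same shares of all entries given above for the 9 genes. RARG, which encodes the receptor that both inhibitors target, was at 51.1, 37.5 and 23.5 TPM in PK-1 and at 30.1, 8.83 and 3.27 TPM in Panc-1. It was thus lower in every treated library than in its control, by -0.44 and -1.09 on the log2 scale for PK-1 cells and by -1.66 and -2.86 for Panc-1 cells. RARB, often an RA-induced gene, was at the floor in all 6 libraries. AKR1C3, an aldo-keto reductase that can reduce retinaldehyde, was at 119, 290 and 397 TPM in PK-1 and at the floor in Panc-1. Its reads may be shared with relatives of similar sequence, so these values are uncertain. SDR16C5, a retinol dehydrogenase, was at the floor in the PK-1 control and at 3.65 and 6.54 TPM with RARγi-1 and RARγi-2, so no fold is given.

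**Figure D4:**
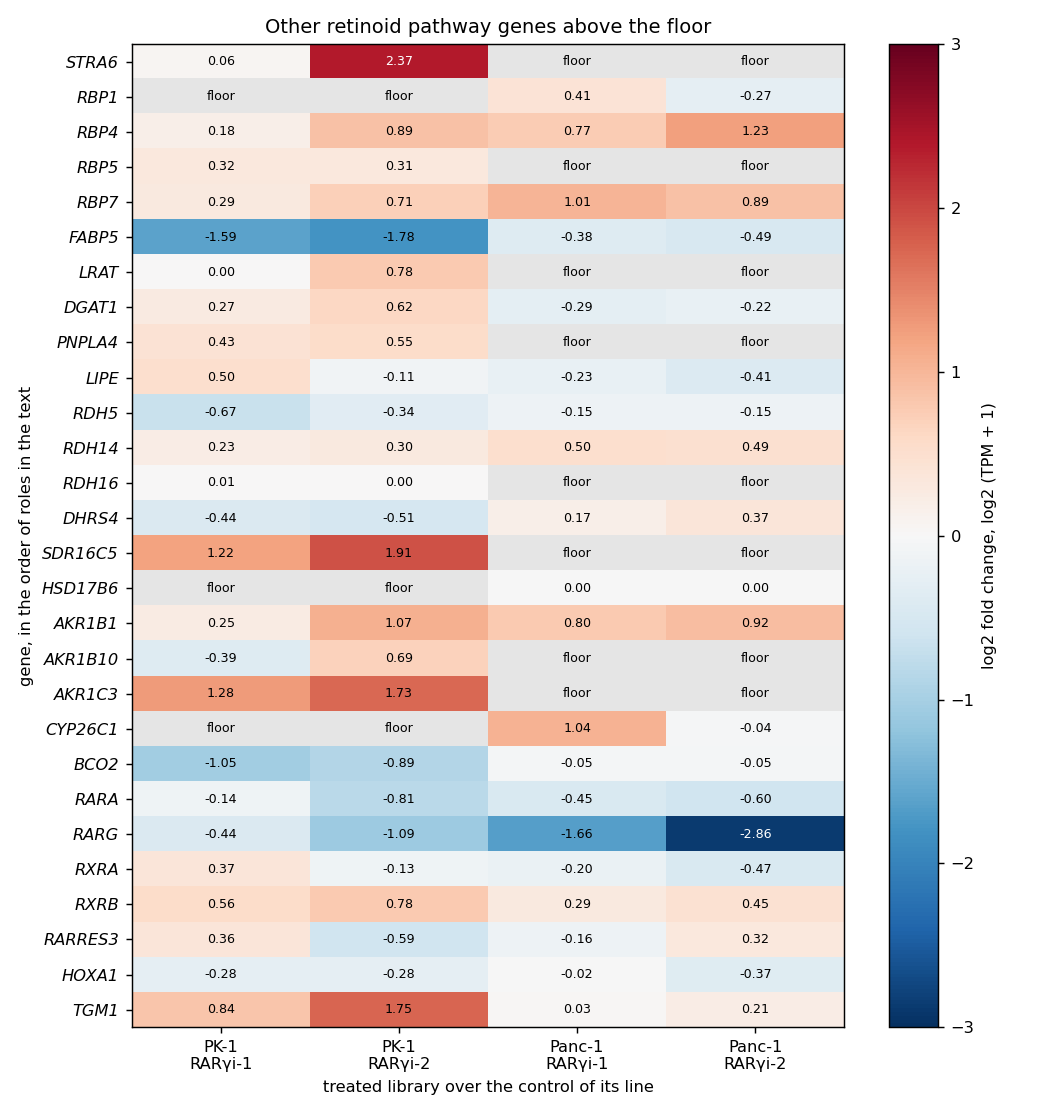
Log2 fold change over the control of the line, on the log2 (TPM + 1) scale, for the 28 further retinoid genes above the floor in at least 1 library, ordered by role; grey cells are at the floor in all 3 libraries of the line. RARG is lower in all 4 columns, FABP5 is past 2-fold only in PK-1, and the size of a change from a control at the floor, as for SDR16C5, depends on the added 1 TPM.

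The entries whose 4 log2 fold changes lay closest to those of a gene of the list were found among 9912 entries with at least 5 TPM in a library of each line, by the mean absolute difference. The closest to TGM2 were HELLS at 0.185, MEST at 0.188 and THBS1 at 0.208 log2 units, and 45 entries lay within 0.5 of it. MEST was at the floor in the PK-1 library with RARγi-2, so its value there is limited by the floor. The closest to ALDH1A3 were DEPDC1B at 0.102, LY6E at 0.103 and NEK2 at 0.126, with 211 entries within 0.5. DHRS3 had few close entries, with 4 within 0.5, and the closest were ITGBL1 at 0.379, POLR2L at 0.428 and PLCE1 at 0.453. ITGBL1 was at the floor in the Panc-1 library with RARγi-2 and at 1.19 TPM with RARγi-1. Its value with RARγi-2 there is limited by the floor. The likeness is over 4 values that share 2 control libraries and is a description.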

How the data were processed

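RNA of PK-1 and Panc-1 cells was isolated with Trizol, and libraries were made with a strand-specific TruSeq mRNA kit. For each library the authors deposited log2 values of TPM, floored at 1 TPM; the submitters' processing notes name hg38, and the aligner, counter and annotation are not given in the sources used here. Libraries were grouped by title. Here the values were returned to TPM with Python 3.11.15, pandas 2.3.3 and numpy 2.4.6, and fold changes were taken with a pseudocount of 1 TPM. Within a line there is 1 library per condition and so no test; an effect common to both lines was tested with limma 3.58.1 (R 4.3.3, trend option) with the line as a block, a fit added after seeing the data. The spread is 1.4826 times the median absolute deviation. Entries above 1 TPM in at least 1 library of a line were counted past 2-fold. The scripts were tested on simulated data. Gene positions and promoters are from RefSeq GRCh38.p14.

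All 9 genes are named, and of the 55 other retinoid genes RARG and those with at least 5 TPM and past 2-fold in 1 direction with both inhibitors in a line. For the 3 genes with the largest mean change, the 3 nearest entries are named. Further family members, markers and overlapping genes were named after their values were seen. The genes and lists were chosen with earlier results of these data known. Alternatives were no pseudocount, a pseudocount of 0.1 TPM, rescaling by median ratios over entries with at least 5 TPM in all 6 libraries, a minimum of 5 TPM, and fold thresholds of 1.5 and 3.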

Additional observations from a re-analysis of the deposited data

Results flagged for a closer look

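RDH10 and RDH13 had log2 fold changes above 0 in both treated PK-1 libraries and below 0 in both treated Panc-1 libraries. The mean log2 fold change in PK-1 exceeded that in Panc-1 by 0.63 for RDH10 and by 0.22 for RDH13. Most of these values were within the spread between treated libraries: all 4 of RDH13, and 3 of 4 of RDH10. The difference between the lines was not tested. The PK-1 values with RARγi-1 were close to 0 for both genes and turned slightly negative on rescaling.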

How the results depend on the processing

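None of the 9 genes changed sides of 2-fold in any comparison without a pseudocount, with a pseudocount of 0.1 TPM or after rescaling. Genes past 2-fold remained so. Rescaling shifted the fold changes by -0.11 and 0.05 in PK-1 and by -0.09 and 0.00 in Panc-1, and with RARγi-1 in PK-1 it took RDH10 from 0.03 to -0.07, RDH13 from 0.01 to -0.09 and CYP26B1 from 0.03 to -0.06. At a threshold of 1.5, 1 of the 9 genes was higher with each inhibitor in PK-1 instead of 0. At 3, 2 were lower with RARγi-2 in PK-1 and 2 with RARγi-1 in Panc-1, instead of 4. Shares of all entries are given at 2-fold only, so none stands beside the counts at 1.5 and 3.

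For the 55 other retinoid genes, the number higher with RARγi-2 in PK-1 was 8 without a pseudocount and 8 with 0.1 TPM, instead of 5. At a threshold of 1.5, 11 were higher and 5 lower with RARγi-2 in PK-1, 4 were higher with RARγi-1 in Panc-1, and 3 were higher and 2 lower with RARγi-2 in Panc-1. At 3, 0 were higher and 1 lower with RARγi-1 in PK-1, 1 was lower with RARγi-2 in PK-1, and 0 were higher with either inhibitor in Panc-1. With a minimum of 5 TPM, 1 was lower with RARγi-1 in PK-1 and 1 higher with RARγi-1 in Panc-1, and rescaling left 0 higher with RARγi-1 in Panc-1. No share of all entries under these settings is given, so the counts cannot be set against a background.

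The fit over both lines has the line as a replicate block and was added after seeing the data. Of the 8 genes, 3 were lower with RARγi-1 and 3 with RARγi-2, and across the other pseudocounts, rescaling and the minimum of 5 TPM these numbers were 2 to 3 and 3 to 4. No share of all entries under these other settings is given, so their counts cannot be set against a background. DHRS3 alone changed sides, with limma adjusted p-values of 0.0385 to 0.0524 with RARγi-1 and 0.0426 to 0.0597 with RARγi-2. With 1 library left out, 1 condition keeps only 1 library, and the calls with RARγi-1 were lost without either library given it. Summing repeated entries did not apply, since each of the 9 genes has 1 entry. Values at the floor limit what can be said of low genes, and the depth behind every value is unknown.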
